A study of Mus musculus with 10 samples.

Results

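A set of 10 genes of sugar and urate transport were chosen by name: the sodium-coupled carriers Slc5a1, Slc5a2, Slc5a8 and Slc5a10, and the facilitative carriers Slc2a1, Slc2a2, Slc2a3, Slc2a4, Slc2a5 and Slc2a9. Of these 10 genes 9 were matched by Entrez Gene ID to the 16475 genes measured, and Slc5a8 was not analysed here. The tissue was renal cortex depleted of glomeruli, taken at an age of 24 weeks from mice of the BKS strain. Each mouse was run on 1 Affymetrix array. One group held 5 diabetic db/db mice, in which both copies of the leptin receptor gene Lepr carry the db mutation, and the other held 5 nondiabetic db/m littermates, which carry it on a single copy. The mutation is present in every tissue, the labels list no treatment and do not state sex. Levels are log2 expression values, and a change is the db/db mean minus that of db/m in log2 units, with its standard error (SE).

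The proximal tubule recovers nearly all filtered glucose in a pair of steps. Sodium-coupled carriers of the Slc5a family in the apical membrane, which faces the urine, pull sugar into the cell with the sodium gradient, and Slc2a carriers in the basolateral membrane let it leave toward the blood. Early segments, S1 and S2, use SGLT2 (Slc5a2) with GLUT2 (Slc2a2), and the last segment, S3, uses SGLT1 (Slc5a1) with GLUT1 (Slc2a1). Fructose and mannose have apical carriers of their own, GLUT5 (Slc2a5) and SGLT5 (Slc5a10), and GLUT9 (Slc2a9) carries urate, with protein variants known from both membranes.

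Promoter windows are shown for Slc5a10 and Slc2a9, the genes that rose in the comparison of all mice, and for Slc2a5, which rose when 1 mouse was left out. Each runs from 250 bases before to 50 bases after the RefSeq transcript start in build GRCm38.p6, 5′ to 3′ on the gene's strand, and capitals mark matches to any of 7 motifs on either strand. 4 of them are the half-site AGGTCA, which many nuclear receptors bind; the E-box CACGTG, bound by basic helix-loop-helix factors; the box GGGCGG, bound by Sp1; and the TATA box TATAAA, which places the start of transcription. The Slc5a10 window is chr11:61720750-61721049, minus strand; a further Slc5a10 window at chr11:61719936-61720235 held 0 matches. The Slc2a9 window is chr5:38483336-38483635, minus strand, with its start site 19762 bases inside the RefSeq span of the gene. The Slc2a5 window is chr4:150119094-150119393, plus strand.
Slc5a10: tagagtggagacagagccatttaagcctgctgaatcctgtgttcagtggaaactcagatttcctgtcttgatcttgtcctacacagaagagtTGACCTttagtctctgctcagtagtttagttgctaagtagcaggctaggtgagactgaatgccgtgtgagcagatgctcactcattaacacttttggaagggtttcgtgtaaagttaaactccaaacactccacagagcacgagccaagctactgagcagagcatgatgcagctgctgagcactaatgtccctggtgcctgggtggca
Slc2a9: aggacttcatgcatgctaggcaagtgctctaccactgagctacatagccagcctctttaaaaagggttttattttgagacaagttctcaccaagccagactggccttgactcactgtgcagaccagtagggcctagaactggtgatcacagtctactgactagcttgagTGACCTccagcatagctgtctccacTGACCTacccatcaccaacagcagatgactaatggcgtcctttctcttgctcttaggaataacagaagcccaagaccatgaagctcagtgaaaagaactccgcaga
Slc2a5: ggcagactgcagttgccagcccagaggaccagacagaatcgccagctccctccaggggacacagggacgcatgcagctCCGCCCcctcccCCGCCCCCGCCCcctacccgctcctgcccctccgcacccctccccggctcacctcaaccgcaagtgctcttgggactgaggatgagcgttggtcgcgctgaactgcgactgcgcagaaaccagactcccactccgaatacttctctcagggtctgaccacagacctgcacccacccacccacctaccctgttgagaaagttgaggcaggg

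The Slc5a10 window held 1 nuclear receptor half-site, the Slc2a9 window 2 nuclear receptor half-sites at positions -81 and -56 from the start, and the Slc2a5 window 3 boxes for Sp1. Of all 32851 RefSeq windows of this length 16.3% held the nuclear receptor half-site, 35.7% the Sp1 box, 7.15% the E-box and 13.6% the TATA box. The other 3 motifs were the HNF4 site CAAAGTCCA, the forkhead factor site TGTTTAC, and the box CCAAT, bound by NF-Y. None of these 3 matched the windows shown; they were held by 0.475%, 3.65% and 37.4% of all windows. Windows of members that passed in neither comparison held the same motifs. The Slc2a2 window held 1 nuclear receptor half-site and the Slc2a1 window 2 boxes for Sp1, while the Slc5a1 window held neither motif. The letters are a description of the windows, and binding was not measured. Among the members, 6 of 9 had windows in the table; Slc5a2, Slc2a3 and Slc2a4 did not match. Slc2a1 and Slc2a5 lie on chromosome 4 together with Lepr, with windows 17.4 and 48.4 Mb from it.

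One diabetic mouse, db/db 1, stood apart from the other 9 arrays. Its correlation with them, across genes, was 0.938 to 0.962, while all other pairs of arrays reached 0.985 or more. Its mean log2 level over 8 macrophage markers was 11.83, against 7.73 to 9.52 in db/db 2 to 5 and 8.53 to 8.75 in db/m, and its level over 5 neutrophil markers was 11.83 against 6.25 to 8.40 and 6.09 to 6.92. Its marker levels were low in several tubule segments: 12.2 over 8 markers of S1 and S2, against 12.89 to 12.96 in db/db 2 to 5 and 12.59 to 12.82 in db/m, and 11.00 in the thick ascending limb, against 12.13 to 12.38 and 12.15 to 12.40. In the distal tubule its level was 9.23, against 11.24 to 11.53 and 10.63 to 11.01. For principal cells it was 9.18, against 10.44 to 10.68 and 9.89 to 10.20, and for intercalated cells 9.01, against 10.44 to 10.86 and 10.01 to 10.52. The labelled tissue was checked on the 8 markers of S1 and S2, of which 0 were in the lowest 25% of genes by mean level. In tissue RNA, fewer cells of a type and less RNA per cell cannot be told apart. Results for the 9 genes are given for all 10 mice and without db/db 1.

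Among the 9 genes 2 rose in db/db and 0 fell by limma at a Benjamini-Hochberg adjusted p under 0.05. Those that rose were the mannose and fructose carrier gene Slc5a10 and the urate carrier gene Slc2a9. Over all genes the same test called 2.96% higher and 3.54% lower, 6.51% together. At an unadjusted p under 0.05 limma gave 4 of the 9 higher, Slc5a1 and Slc2a1 included, and 0 lower. The share of all genes at that unadjusted cutoff was not computed, here or for the lists below, and the shares above do not apply to it. The groups did not overlap for Slc5a10 and Slc2a9, both higher in db/db, against 4.35% of all genes higher in this way, 5.85% lower and 10.2% in either direction. The median change of the 9 genes was 0.38, against -0.03 over all genes. Leaving out db/db 1 gave 4 genes higher and 0 lower, with Slc2a5 and Slc2a4 added, against 6.84% of all genes higher and 5.93% lower, 12.8% together. In that comparison all of db/db 2 to 5 lay above all db/m mice for 6 of the 9 genes, against 7.76% of all genes; 7.61% of all genes were separated with db/db lower and 15.4% in either direction.

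**Figure D1:**
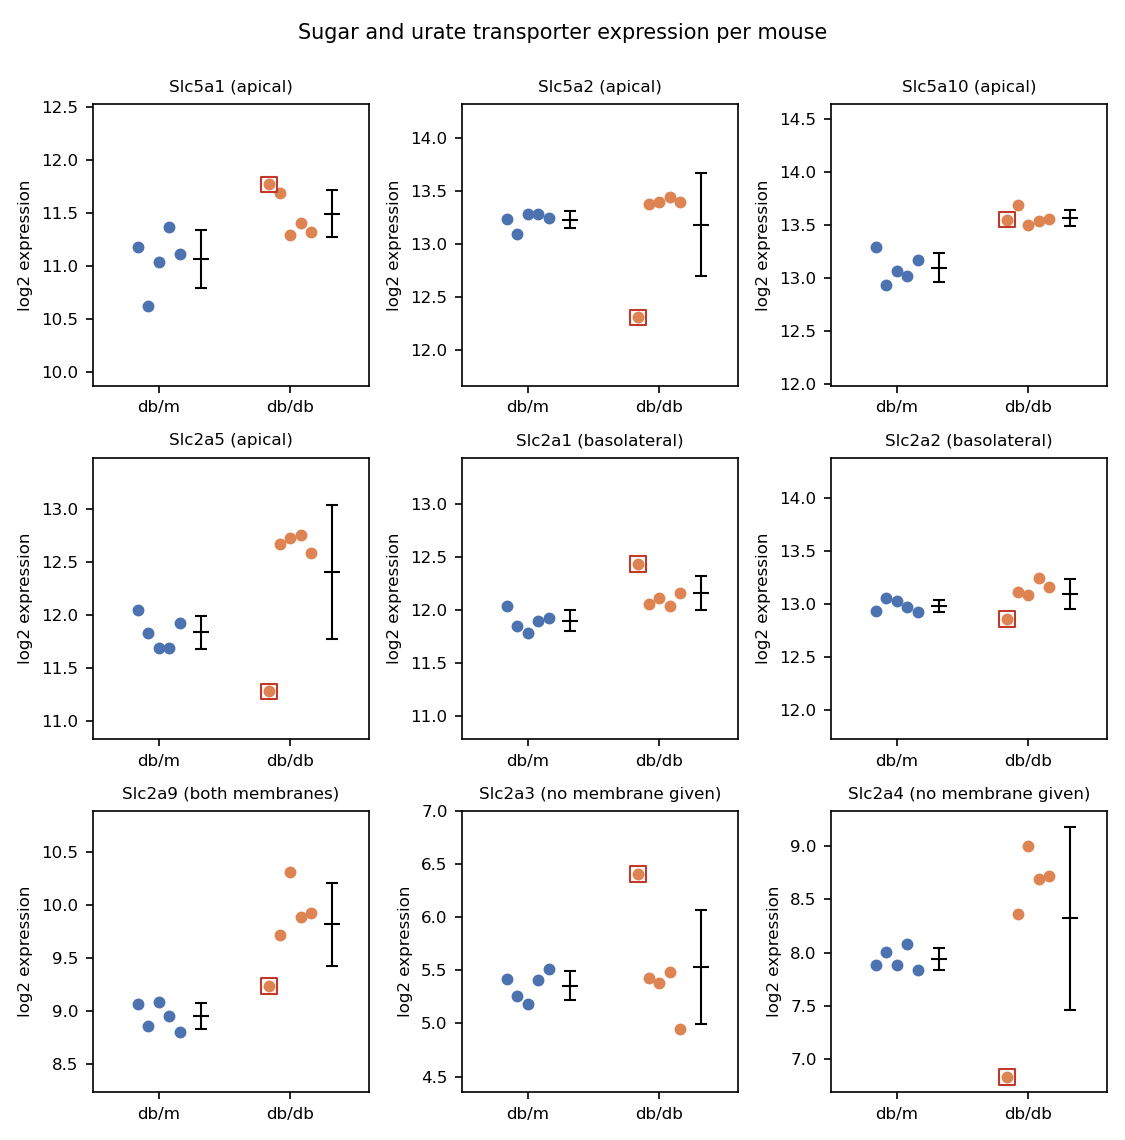
Log2 expression of the 9 transporter genes in each mouse, 5 db/m (blue) and 5 db/db (orange), with group mean and SD beside the points; the red square is db/db 1, and all panels span the same number of log2 units. Slc5a10 and Slc2a9 were higher in all 5 db/db mice than in any db/m mouse, and db/db 1 lay below all db/m mice for Slc5a2, Slc2a5, Slc2a2 and Slc2a4.

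The apical glucose carriers did not pass the test, with all mice or without db/db 1. Slc5a2 encodes SGLT2, the bulk carrier of the early proximal tubule and the target of the gliflozin drugs. Its levels were 13.24, 13.09, 13.29, 13.29 and 13.25 in db/m 1 to 5, and 12.31, 13.38, 13.40, 13.45 and 13.39 in db/db 1 to 5. Mice db/db 2 to 5 lay within a narrow band just above the highest db/m mouse, and db/db 1 lay far below every other mouse. The means were 13.23 ± 0.08 in db/m and 13.19 ± 0.49 in db/db (SD, n = 5), a change of -0.05 ± 0.20 (limma adjusted p = 0.92). The 95% interval of the change ran from -0.50 to 0.40, or 0.708-fold to 1.32-fold. Without db/db 1 the change was 0.17 ± 0.06 (limma adjusted p = 0.097), so its direction turned, with an interval from 0.04 to 0.31. These levels are near the top of a scale that ended at 14.5, and whether differences are compressed there was not tested.

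Slc5a1 encodes SGLT1, the high-affinity carrier that takes up what is left in S3. Its levels were 11.18, 10.63, 11.03, 11.37 and 11.11 in db/m 1 to 5, and 11.77, 11.69, 11.29, 11.40 and 11.32 in db/db 1 to 5. Of the db/db mice 3 lay above the highest db/m mouse, and the groups overlapped. The change was 0.43 ± 0.15 (limma adjusted p = 0.123), or 1.35-fold with a 95% interval from 1.07 to 1.69, and it was 0.36 ± 0.14 (adjusted p = 0.145) without db/db 1. The mouse db/db 1 had the highest Slc5a1 level and the lowest Slc5a2 level of all mice. Of 7 other genes typical of S3, 5 fell in db/db and 0 rose by limma, with a median change of -1.72; the organic anion transporter gene Slc22a7 had the largest, -5.17 ± 0.39 (adjusted p = 0.000232). Of the 7, 6 fell without db/db 1. Over all genes 3.54% fell with all mice and 5.93% without db/db 1. The mean level of those 7 genes was 9.97 to 10.92 in db/db and 12.59 to 13.11 in db/m, and the part of this shift in the Slc5a1 values was not tested.

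Slc5a10, which encodes SGLT5, a carrier of mannose and fructose, rose. Its levels were 13.30, 12.94, 13.06, 13.02 and 13.17 in db/m 1 to 5, and 13.55, 13.69, 13.50, 13.54 and 13.55 in db/db 1 to 5. The lowest db/db mouse lay above the highest db/m mouse, and db/db 1 lay among the other diabetic mice. The mean went from 13.10 ± 0.14 to 13.57 ± 0.07 (SD, n = 5), a 1.38-fold rise with a 95% interval from 1.22 to 1.56 (0.47 ± 0.08, limma adjusted p = 0.00916). The rise was called in all 10 fits that each left out 1 mouse, with adjusted p up to 0.0329.

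Slc2a5 encodes GLUT5, an apical fructose carrier of S3. Its levels were 12.04, 11.83, 11.69, 11.69 and 11.92 in db/m 1 to 5, and 11.28, 12.67, 12.73, 12.75 and 12.58 in db/db 1 to 5. Mice db/db 2 to 5 lay above all db/m mice, and db/db 1 lay below all of them. With all mice the change was 0.57 ± 0.26 (limma adjusted p = 0.246). Leaving out db/db 1, Slc2a5 rose 1.80-fold (0.85 ± 0.09, limma adjusted p = 0.000473), with a 95% interval of 0.65 to 1.04 on the log2 scale. The S3 markers named above were lower in all 5 db/db mice than in any db/m mouse by their mean level, and their part in this result was not tested.

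**Figure D2:**
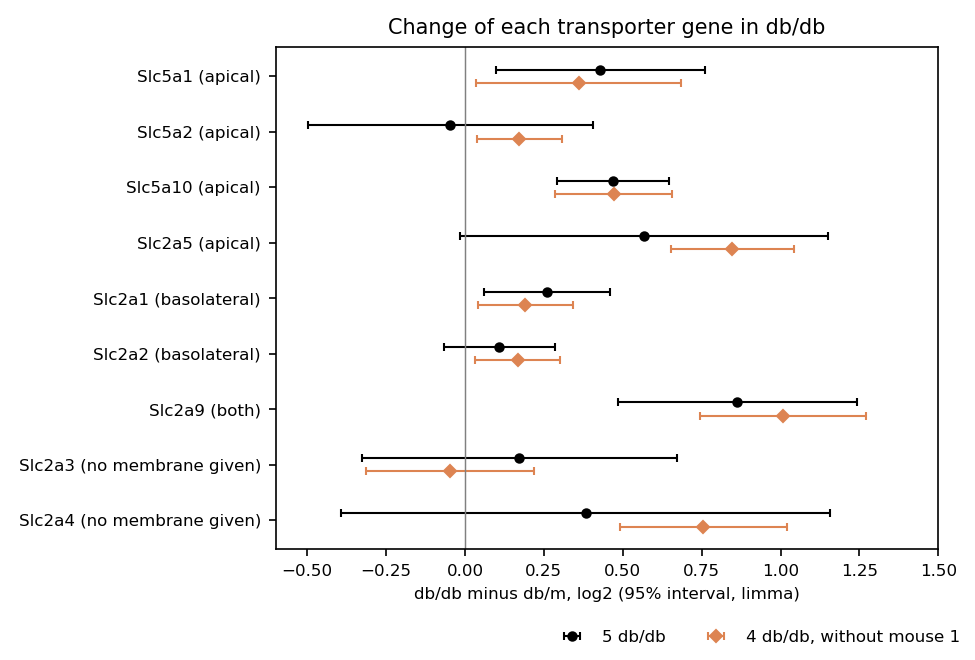
Change in db/db against db/m for each gene with its 95% interval from limma, for all 5 db/db mice (black circles) and without db/db 1 (orange diamonds). The intervals for Slc5a10, Slc2a9, Slc5a1 and Slc2a1 lie above 0 in both, although Slc5a1 and Slc2a1 did not pass the adjusted threshold. Those for Slc5a2, Slc2a2 and Slc2a4 lie above 0 only without db/db 1. That for Slc2a5 narrows from -0.02 to 1.15 with all mice to 0.65 to 1.04 without db/db 1.

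The basolateral glucose carriers did not pass the test. Slc2a2 encodes GLUT2, the low-affinity exit carrier of the early segments. Its levels were 12.94, 13.05, 13.03, 12.97 and 12.92 in db/m 1 to 5, and 12.86, 13.11, 13.08, 13.25 and 13.16 in db/db 1 to 5. As for Slc5a2, db/db 2 to 5 lay just above the db/m range and db/db 1 below it. The change was 0.11 ± 0.08 (limma adjusted p = 0.471), or 1.08-fold with a 95% interval from 0.955 to 1.22. Without db/db 1 it was 0.17 ± 0.06 (limma adjusted p = 0.105), without db/db 4 it was 0.071 (adjusted p = 0.651), and with each array centred on its median it was 0.042 (adjusted p = 0.803).

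Slc2a1 encodes GLUT1, the exit carrier of S3 that other tubule segments also use. Its levels were 12.04, 11.85, 11.79, 11.90 and 11.93 in db/m 1 to 5, and 12.44, 12.06, 12.12, 12.04 and 12.16 in db/db 1 to 5. The highest value was that of db/db 1, and the groups overlapped only between db/m 1 and db/db 4. The change was 0.26 ± 0.09 (limma adjusted p = 0.121), or 1.20-fold with an interval from 1.04 to 1.38, and 0.19 ± 0.07 (adjusted p = 0.0949) without db/db 1.

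Apical and basolateral carriers were then set against each other within each mouse, in 3 comparisons adjusted together. The difference of Slc5a2 minus Slc2a2, the pair of S1 and S2, was 0.25 ± 0.12 in db/m and 0.09 ± 0.36 in db/db (SD, n = 5). It changed by -0.16 with a 95% interval from -0.55 to 0.24 (exact permutation test over mice, two-sided, p = 0.492, adjusted p = 0.492), and without db/db 1 by 0.00460, the opposite sign (exact p = 0.960, adjusted p = 0.960). The single values were 0.30, 0.04, 0.26, 0.32 and 0.32 in db/m 1 to 5, and -0.55, 0.26, 0.31, 0.20 and 0.23 in db/db 1 to 5, so that db/db 2 to 5 lay inside the db/m range. For Slc5a1 minus Slc2a1, the pair of S3, the change was 0.17 with an interval from -0.16 to 0.50 (exact permutation p = 0.294, adjusted p = 0.440). For the apical pair Slc5a1 minus Slc5a2 the change was 0.48 with an interval from -0.24 to 1.19 (exact permutation p = 0.111, adjusted p = 0.333), and 0.19 without db/db 1. No difference in response between these carriers was detectable with 5 mice in a group, where the smallest exact p is 0.00794, and the intervals above give the differences that remain possible. By counts, 1 of the 4 apical genes and 0 of the 2 basolateral genes rose, against 2.96% of all genes. Without db/db 1 the counts were 2 and 0, against 6.84% of all genes. With so few genes these counts cannot tell the membranes apart. The median change was 0.45 over the apical genes and 0.18 over the basolateral genes, and a difference between these sets was not tested.

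**Figure D3:**
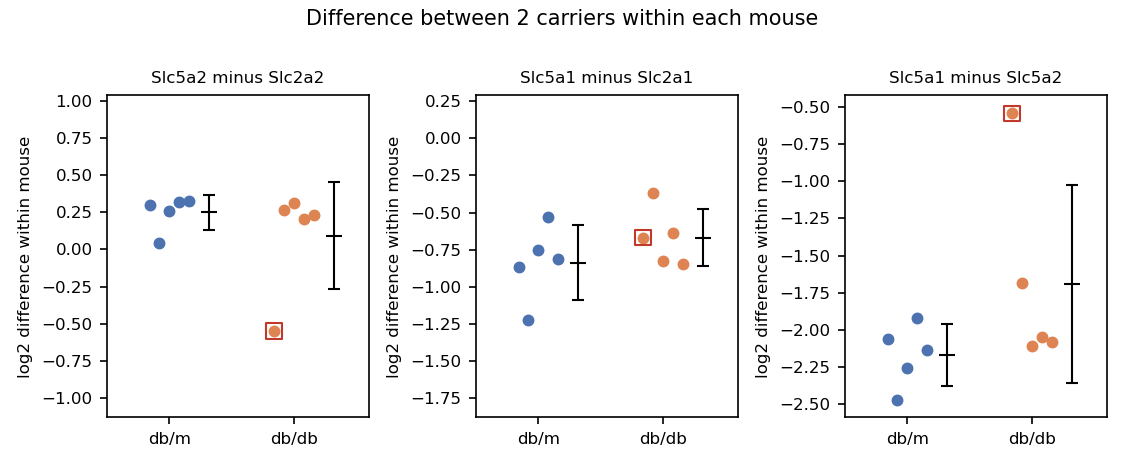
Within-mouse difference in log2 expression between 2 carriers, for 5 db/m (blue) and 5 db/db mice (orange), with group mean and SD; the red square is db/db 1. The groups overlap in all 3 panels, and db/db 1 is the lowest value for Slc5a2 minus Slc2a2 and the highest for Slc5a1 minus Slc5a2.

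Slc2a9, which encodes the urate carrier GLUT9, had the largest change of the 9 genes. Its levels were 9.07, 8.87, 9.09, 8.96 and 8.81 in db/m 1 to 5, and 9.24, 9.72, 10.32, 9.89 and 9.93 in db/db 1 to 5. Every db/db mouse lay above every db/m mouse, with db/db 1 the lowest of the diabetic mice. The mean went from 8.96 ± 0.12 to 9.82 ± 0.39 (SD, n = 5), a 1.82-fold rise with a 95% interval from 1.40 to 2.36 (0.86 ± 0.17, limma adjusted p = 0.0168). The rise was 2.01-fold without db/db 1 (1.01 ± 0.12, limma adjusted p = 0.000892). It was called in all 10 fits that each left out 1 mouse, with adjusted p up to 0.0450. The array gives 1 value for the gene, so that the variants of the apical and the basolateral membrane were not measured apart.

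Other urate transport genes moved in both directions. Of 9 measured, 1 rose and 1 fell by limma, against 2.96% and 3.54% of all genes, with a median change of -0.15. Abcc4, which encodes the efflux pump MRP4, had levels of 10.89, 10.56, 10.55, 10.63 and 10.75 in db/m 1 to 5, and 12.34, 11.76, 12.25, 12.12 and 11.95 in db/db 1 to 5. All diabetic mice lay clearly above the db/m mice, a rise of 1.41 ± 0.12 (limma adjusted p = 0.000357). Slc17a3, a phosphate transporter family gene whose protein carries urate at the apical side, fell by 0.43 (SE 0.07, limma adjusted p = 0.00621), with 12.93 to 13.16 in db/db against 13.45 to 13.57 in db/m. The apical urate exchanger gene Slc22a12 (URAT1) did not pass with all mice (-0.28 ± 0.08, limma adjusted p = 0.0612), although its levels did not overlap, and fell without db/db 1 (-0.22, adjusted p = 0.0307). Slc22a8, a basolateral organic anion carrier gene, had a level of 9.99 in db/db 1, and 12.05 to 12.41 in db/db 2 to 5 against 11.12 to 11.55 in db/m. It rose without db/db 1 (0.83, limma adjusted p = 0.00119) and did not pass with all mice (0.40 ± 0.40, adjusted p = 0.617).

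Genes of urate formation and breakdown held 0 calls by limma among 9 measured, with all mice, and 2 higher and 2 lower at an unadjusted p under 0.05. The lowest adjusted p was that of the nucleotidase gene Nt5e (-0.97 ± 0.30, limma adjusted p = 0.0843). Xdh, which encodes the enzyme that makes urate, had a change of 1.25 ± 0.39 (limma adjusted p = 0.0865), with levels of 12.73, 11.07, 10.84, 10.59 and 10.35 in db/db 1 to 5 and 9.61 to 10.14 in db/m. The groups did not overlap, and db/db 1 was highest. Without db/db 1 Xdh rose by 0.84 (limma adjusted p = 0.00735), Nt5e fell by 1.26 (adjusted p = 0.00104), and 2 genes of the list rose and 2 fell. Over all genes 6.84% rose and 5.93% fell in that comparison. In the count with all mice, Ada, Ampd3, Gda, Uox, Pnp, Ampd2 and Urah also did not pass. For Ampd3 the groups did not overlap, with db/db higher, and it rose without db/db 1 (0.46, limma adjusted p = 0.00971). Pnp fell without db/db 1 (-0.28, limma adjusted p = 0.0380).

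**Figure D4:**
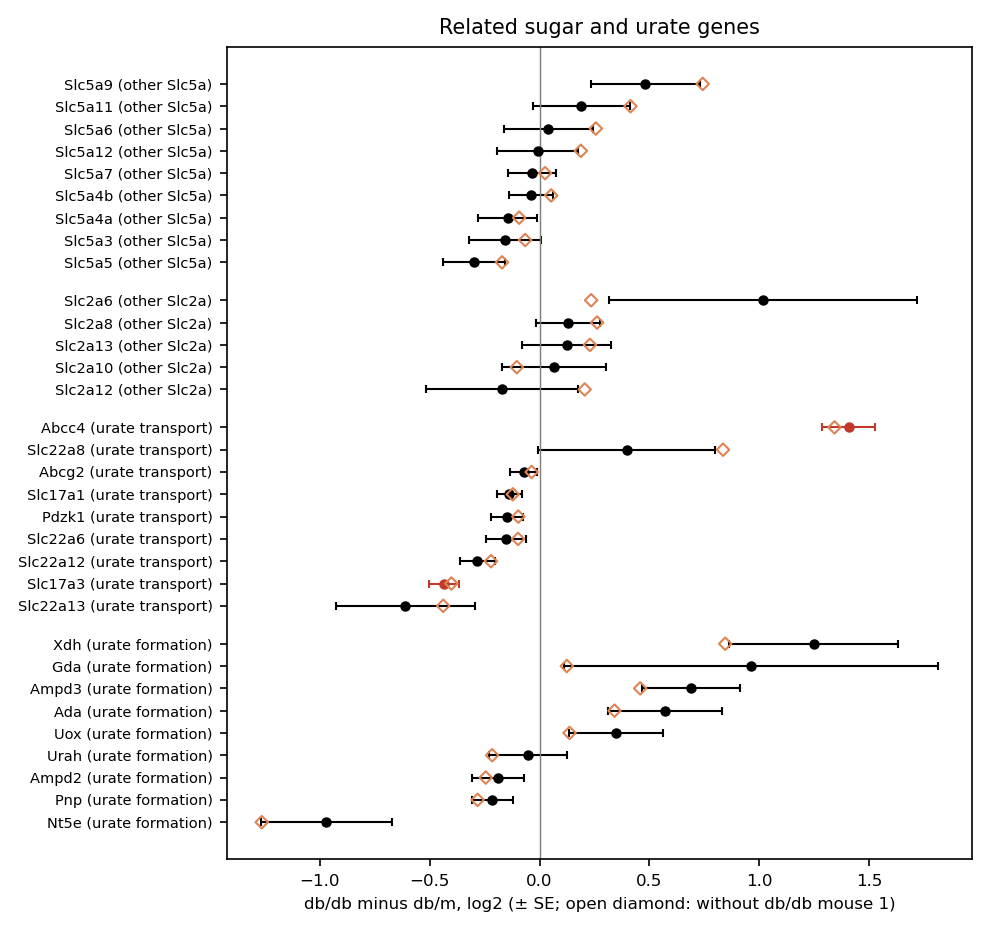
Change in db/db against db/m (± SE, n = 5 per group) for related genes of sugar and urate handling; red marks genes with a limma adjusted p under 0.05, and open diamonds give the change without db/db 1. Abcc4 and Slc17a3 are the genes in red, and the diamonds of Slc5a9, Slc5a11 and Slc22a8 lie to the right of the values for all mice.

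The remaining carriers of the set are known from other cells. Slc2a4 encodes GLUT4, the insulin-responsive carrier of muscle and fat. Its levels were 7.89, 8.01, 7.88, 8.08 and 7.84 in db/m 1 to 5, and 6.83, 8.36, 9.01, 8.69 and 8.72 in db/db 1 to 5. Mice db/db 2 to 5 lay above all db/m mice, and db/db 1 below all of them. With all mice the change was 0.38 ± 0.35 (limma adjusted p = 0.573), and without db/db 1 Slc2a4 rose 1.69-fold (0.76 ± 0.12, limma adjusted p = 0.00357). Leaving out db/db 3, the highest mouse, instead gave 0.21 (limma adjusted p = 0.763). Of 6 muscle markers 0 passed the test, with mean levels of 7.89 to 8.28 in db/m and 7.80 to 8.18 in db/db, and of 4 adipocyte markers 0 passed, with 4.82 to 7.06 in db/m and 4.61 to 5.33 in db/db. At an unadjusted p under 0.05 both lists also held 0, and their part in the Slc2a4 values was not tested.

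Slc2a3 encodes GLUT3, a high-affinity carrier of neurons and white blood cells, and its levels were in the lowest 25% of all genes by mean. They were 5.42, 5.26, 5.19, 5.41 and 5.52 in db/m 1 to 5, and 6.41, 5.43, 5.38, 5.49 and 4.94 in db/db 1 to 5. The highest value was that of db/db 1, the mouse with the highest macrophage and neutrophil marker levels, and db/db 5 was the lowest mouse. The change was 0.17 ± 0.22 (limma adjusted p = 0.704) with all mice, and -0.05 ± 0.12 (adjusted p = 0.857) without db/db 1. Of 8 macrophage and 5 neutrophil markers 0 passed limma with all mice, also at an unadjusted p under 0.05, and their part in the Slc2a3 values was not tested.

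**Figure D5:**
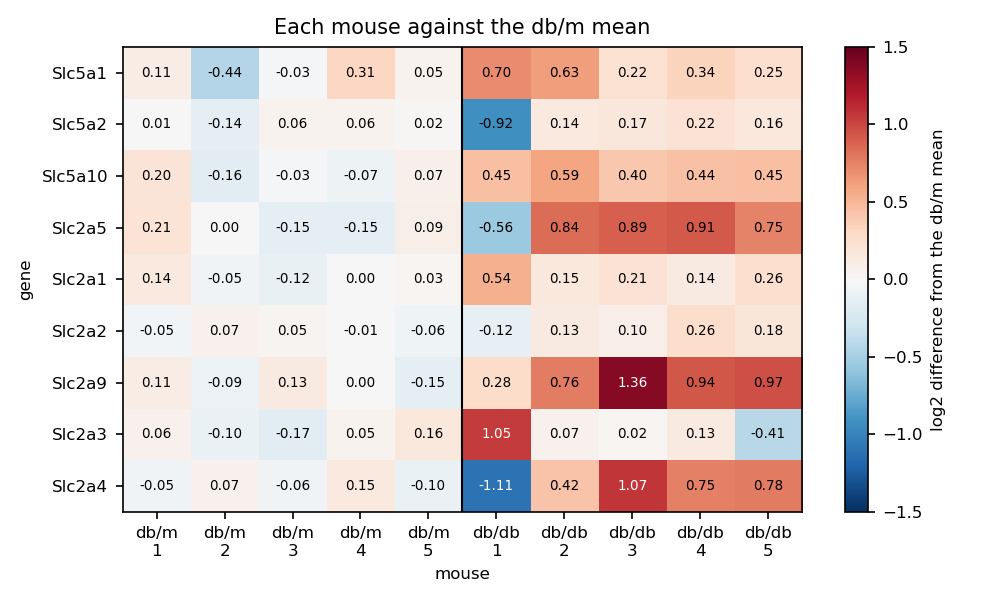
Log2 difference of each mouse from the db/m mean for the 9 genes, 5 db/m mice on the left and 5 db/db mice on the right. Mice db/db 2 to 5 are above 0 for every gene except Slc2a3 in db/db 5 (-0.41), while db/db 1 ranges from -1.11 for Slc2a4 to 1.05 for Slc2a3.

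Against the db/m mean, db/db 1 differed from the other diabetic mice in sign as well as in size. It was the lowest diabetic mouse for 5 of the 9 genes (Slc5a2, Slc2a5, Slc2a2, Slc2a9 and Slc2a4) and the highest for 3 (Slc5a1, Slc2a1 and Slc2a3). It lay below all db/m mice for 4 genes and above all of them for the other 5. For Slc5a2 it was lower than the db/m mean by 0.92, and for Slc5a1 it was higher by 0.70. The S1 and S2 markers were also lowest in this mouse by their mean level, as given above, though not each marker singly. Their part in its Slc5a2 and Slc2a2 levels was not tested.

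The other members of both carrier families gave 0 calls by limma with all mice, and 0 at an unadjusted p under 0.05. Of 9 further Slc5a genes the lowest adjusted p was that of the iodide carrier gene Slc5a5 (-0.30 ± 0.14, limma adjusted p = 0.258), and of 5 further Slc2a genes that of Slc2a6 (1.02 ± 0.70, adjusted p = 0.447), whose level was 10.77 in db/db 1 and 6.40 to 7.07 in the other 9 mice. At the same threshold, 3 Slc5a genes rose without db/db 1: the mannose carrier gene Slc5a9 (0.74, limma adjusted p = 0.00104), the inositol carrier gene Slc5a11 (0.41, adjusted p = 0.0306) and the vitamin carrier gene Slc5a6 (0.26, adjusted p = 0.0427). Over all genes 6.84% rose without db/db 1. For Slc5a9 the levels were 8.29 in db/db 1, 9.54 to 9.68 in db/db 2 to 5 and 8.69 to 9.10 in db/m. This is the arrangement seen for Slc2a5, with 1 diabetic mouse below and 4 above all db/m mice.

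Among regulators of glucose transport 1 of 10 genes rose by limma, against 2.96% of all genes. Sgk1, a kinase gene known to raise the activity of sodium-coupled carriers, rose by 0.41 ± 0.08 (limma adjusted p = 0.0201), with 13.12 to 13.31 in db/db and 12.64 to 13.01 in db/m. Txnip, a glucose-induced gene whose protein restrains GLUT1, did not pass (0.48 ± 0.14, limma adjusted p = 0.0747), although its levels, 11.65 to 12.36 in db/db and 11.28 to 11.63 in db/m, did not overlap. Of 6 genes that maintain the sodium gradient or the potassium conductance beside it, 0 passed limma with all mice and 2 were higher at an unadjusted p under 0.05, the nearest being the potassium channel gene Kcnq1 (0.51 ± 0.15, adjusted p = 0.0783). Without db/db 1, Kcnq1 and its partner Kcne1 rose by 0.64 and 0.85 (limma adjusted p = 0.00376 and 0.00157). Of 4 fructose and polyol enzymes measured, the hexokinase gene Hk1 rose (0.63 ± 0.15, limma adjusted p = 0.0378), the fructose kinase gene Khk had a change of -0.06 ± 0.09 (adjusted p = 0.735), and the glycerate kinase gene Glyctk had one of -0.62 ± 0.25 (adjusted p = 0.175). The Glyctk levels did not overlap, at 9.29 to 10.69 in db/db and 10.85 to 11.07 in db/m, and without db/db 1 it fell (-0.35, limma adjusted p = 0.00802). Of 7 lactate and monocarboxylate genes 0 passed, also at an unadjusted p under 0.05, the nearest being Slc16a4 (-0.57 ± 0.29, adjusted p = 0.296).

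Genes with values most like those of Slc5a10 and Slc2a9 were found by the root mean square difference of log2 values over the 10 mice, each gene centred on its own mean. For Slc5a10, whose own root mean square was 0.254, the nearest were Prom1 (0.0748), Ripor1 (0.0800) and Kctd6 (0.0813). For Slc2a9, with 0.503, they were Fam161a (0.140), the fatty acid elongase gene Elovl6 (0.175) and the pyruvate dehydrogenase kinase gene Pdk1 (0.177). All 6 are genes that rose in db/db, by 0.47, 0.38, 0.41, 0.66, 0.71 and 1.10 in this order, with limma adjusted p from 0.00363 to 0.0439. Each was chosen for this likeness, so that their changes are a description.

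Markers of other cells moved with the groups in part. Over all genes limma called 2.96% higher and 3.54% lower with all mice, and 6.84% higher and 5.93% lower without db/db 1. Of 5 podocyte markers 3 rose by limma, the largest being Ptpro (0.58 ± 0.10, adjusted p = 0.01), with mean levels of 9.05 to 9.44 in db/db and 8.65 to 9.0 in db/m, although glomeruli had been depleted. All 5 rose without db/db 1, and Nphs1 had the largest change (0.80, limma adjusted p = 0.00201). Of 6 thick ascending limb markers 1 passed, Cldn10, which fell by 0.23 (limma adjusted p = 0.0433), also without db/db 1. Of 5 distal tubule markers 1 passed, Trpm6, which rose by 0.60 (limma adjusted p = 0.0356). Values from bulk cortex tissue, here depleted of glomeruli, do not place these changes in a segment. All 5 distal tubule markers rose without db/db 1, with a median change of 0.46 and the largest that of Slc8a1 (1.23, limma adjusted p = 0.00199). Among 6 principal cell markers 0 passed limma with all mice and 2 were higher at an unadjusted p under 0.05. Of the 6, 4 rose without db/db 1, the largest being the sodium channel subunit gene Scnn1g (1.01, limma adjusted p = 0.000245). Of 6 endothelial markers 0 passed limma and 2 were higher at an unadjusted p under 0.05, and without db/db 1 Pecam1 rose (0.25, limma adjusted p = 0.0469). Of 5 intercalated cell markers both counts were 0, and without db/db 1 Slc4a1 rose (0.93, limma adjusted p = 0.00589). The S1 and S2 marker Slc7a8 also rose without db/db 1 (0.68, limma adjusted p = 0.00187) and the macrophage marker Csf1r fell (-1.08, adjusted p = 0.0137). Of 5 T cell and 2 erythroid markers 0 passed limma with all mice, also at an unadjusted p under 0.05, and 0 passed without db/db 1. Their part in the carrier values was not tested.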

How the data were processed

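Gene expression was measured on 10 arrays, 1 for each of 5 db/db and 5 db/m mice. Per the submitters' processing notes RMA was used, and the deposited log2 table has 1 value per Entrez Gene ID; its version, and how probes were regrouped by gene, are not given in the sources used here. Such processing makes values comparable between arrays but not between genes, and may compress the ends of the scale. Of 16539 rows 64 control rows were left out, which leaves 16475 genes, of which 15780 were named from the supplied probe annotation. Arrays give no counts, so no counting interval was computed; precision is limited by how many arrays there are.

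The comparison of db/db with db/m used limma 3.58.1 under R 4.3.3 (lmFit and eBayes without trend, two-sided), with Benjamini-Hochberg adjustment over all 16475 genes and a threshold of 0.05; 95% intervals come from the same fit. Pairs of carriers were compared within mice with an exact permutation test, and their intervals used the pooled SD. The labels number the mice within each group, so replicates are separate animals. The fit was tested on simulated data. Alternatives were a replicate block, repeated quantile normalisation, median centring, a filter on dim genes, trend and robust settings, array weights, each mouse left out, a threshold of 0.01 and a change of at least 1.5-fold.

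The genes and lists were chosen with earlier results of these data known. The text names all members, up to 3 called genes per pathway list (or the gene nearest the threshold), the largest called change per marker list, and the 3 genes nearest in pattern. Genes named for the comparison without db/db 1, and Xdh, Slc22a12, Txnip, Khk and Glyctk, were added after their values were seen, as were the promoter motifs, of which 2 further ones searched are not reported here. Promoter windows come from RefSeq, build GRCm38.p6. Plots used matplotlib 3.10.9 under Python 3.11.15.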

Additional observations from a re-analysis of the deposited data

Results flagged for a closer look

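Within groups of 5 mice, a mouse was marked where its gap to the nearest other mouse, divided by the group's whole range, exceeded Dixon's 95% critical value; chance marks about 5% of groups. Of 24 groups tested, 7 were marked. In db/db, mouse 1 lay low for Slc5a2 (12.31, the next 13.38), Slc2a5 (11.28, the next 12.58) and Slc5a2 minus Slc2a2 (-0.55, the next 0.20), and high for Slc5a1 minus Slc5a2 (-0.54, the next -1.69). Mouse db/db 2 lay high for Slc5a10 (13.69, the next 13.55). Mouse db/m 2 lay low for Slc5a2 (13.09, the next 13.24) and for Slc5a2 minus Slc2a2 (0.042, the next 0.26). The marks share mice and genes and are not independent.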

How the results depend on the processing

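The labels number the mice within each group and state no pairing. Deviations of mice with the same number correlated at -0.09 to 0.01 over all genes. A pairing that touches few genes would not show there. With the number as a replicate block Slc5a10 and Slc2a9 had limma adjusted p = 0.0680 and 0.0597, so 0 of the 9 genes were called, with 180 genes higher and 213 lower over the table; in that paired form the carrier pair differences had adjusted p of 0.562 to 0.625. With array weights 4 members were called (Slc2a5 and Slc2a4 added), with 1346 genes higher and 1295 lower, and Slc5a2 turned to 0.14. At an adjusted p under 0.01 Slc5a10 alone was called, 1 member, with 132 genes higher and 147 lower. With at least a 1.5-fold change Slc2a9 alone was called, 1 member, with 311 higher and 264 lower. Leaving out 1 mouse gave 2 to 4 members higher and 0 lower, with 234 to 1127 genes higher and 256 to 977 lower over the table; the fewest came without db/m 3 and the most without db/db 1. Without db/db 1 the change of Slc5a2 was 0.17, that of Slc2a3 -0.047 and that of Slc5a2 minus Slc2a2 0.00460, each with the opposite sign. The leave-one-out changes of the carrier pairs ran from -0.21 to 0.00460 for Slc5a2 minus Slc2a2, 0.07 to 0.25 for Slc5a1 minus Slc2a1, and 0.19 to 0.58 for Slc5a1 minus Slc5a2. The leave-one-out changes were -0.112 to 0.17 for Slc5a2 and -0.047 to 0.319 for Slc2a3, 0.071 to 0.168 for Slc2a2 and 0.21 to 0.76 for Slc2a4. The causes were not tested. Over the alternatives other than the 1.5-fold minimum, 142 of the members' values kept direction and side of the threshold, while 4 passed it, 3 lost it and 3 turned. Slc2a3 was left out by the filter on dim genes and has no value there.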
